A study of Mus musculus with 11 samples.

Results

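The interaction of multiparity with S-961 was measured in pancreatic islets as the difference between 2 effects of parity on each gene. The first was multipara against virgin in mice given S-961, and the second was multipara against virgin in mice given no treatment. All 11 libraries of the series entered the comparison, and 17996 of 55536 genes had enough reads to be tested. By their titles, 3 libraries were virgin and 4 were multipara with S-961, and 2 were virgin and 2 were multipara without it. All came from wild type C57BL/6J female mice, which were 9 weeks old at the start. Multipara mice went through 3 consecutive pregnancies and were studied 3 weeks after the last delivery, and virgin mice of the same age had 0 pregnancies. S-961 was given intraperitoneally at 100 nmol/kg 2 times a day for 3 days, and the untreated groups received no injection that the labels name. Whether a library held the islets of 1 mouse or of several was not stated, so p-values measure the spread between these libraries only. The question was whether the mark that repeated pregnancy leaves on islets depends on an acute demand for insulin.

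As an antagonist of the insulin receptor, the peptide S-961 lowers insulin action, raises blood glucose and drives β cells to secrete more insulin and to divide. Pregnancy poses a related demand, which islets meet under placental lactogen and prolactin by expanding the β cells and by turning on genes such as Tph1, the enzyme of serotonin synthesis. Islets also hold α cells, which make glucagon, δ and PP cells, and a small number of nerve, stromal, vessel and immune cells. In bulk RNA, fewer cells of a type and less RNA per cell cannot be told apart.

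Library totals ran from 22028507 to 32234146 counts. The share of insulin transcripts (Ins1 and Ins2) was 35.3 to 41.4% without treatment and 13.2 to 20.7% with S-961. Summed acinar markers, which come from exocrine tissue, took 0.0109 to 0.0222% without treatment and 0.218 to 1.56% with S-961. Within S-961 this share was 0.218 to 0.862% in virgin and 0.563 to 1.56% in multipara libraries, and values with an acinar score as covariate are given below for the S-961-only genes and for the duct and cell cycle lists. Among the S-961 libraries, the one labelled multipara replicate 4 lay nearer to the virgin libraries (root mean square log2 distance 1.24 over the 500 most variable genes) than to the other multipara libraries (2.58). It was below each of multipara replicates 1 to 3 in 85 of 97 genes of S and G2/M phase, and in 23.5% of all genes tested. The untreated library labelled multipara replicate 1 lay 3.6 from its partner and carried more transcripts of lymphocytes, macrophages and red cells. Groups were taken as labelled, and the labels were not checked against measurements from outside these libraries. The study cites earlier reports that Lrrc55 and Matn2 rise in islets during pregnancy. Both were higher in untreated multipara than in untreated virgin libraries, and they split the S-961 libraries in another way than the labels. With S-961, Lrrc55 had 5.34 to 7.54 CPM in virgin libraries and 4.43 CPM in multipara replicate 4, against 0.32 to 1.96 CPM in multipara replicates 1 to 3. Matn2 was ordered the same way, and whether this split reflects the labels was not tested. Each sign of a parity effect rests on those labels, and whether the S-961 libraries carry the intended ones was not established. Were virgin and multipara exchanged among all S-961 libraries, every S-961 effect would turn its sign and no untreated effect would, and the genes described below as reversed would run the same way in both treatments. An exchange in which replicate 4 kept its label would also change which libraries form each group, and with them the effect sizes. Such a fit was not run. Values without each of these libraries are given below where they matter.

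No gene had an interaction past the threshold, an adjusted p of 0.05 (edgeR quasi-likelihood test, Benjamini-Hochberg), so that 0 of 17996 genes or 0% were called. The smallest adjusted p was 0.222, for Lars2 and Serpine2, and 1179 genes had an unadjusted p under 0.05. DESeq2 called 79 genes and limma voom with quality weights called 11. Multipara against virgin gave 0 calls with S-961 and 0 without treatment, with smallest adjusted p of 0.264 and 0.0877 and with 2023 and 844 genes at an unadjusted p under 0.05. These counts depend on the tool and the libraries. With S-961 there were 342 calls by DESeq2, 338 by voom and 678 by edgeR without multipara replicate 4, and without treatment there were 7 by DESeq2, 4 by voom and 239 by edgeR without multipara replicate 2. The largest interactions are therefore described here without being called. At an unadjusted p under 0.01 there were 286 genes (1.59% of those tested). Of these, 224 (1.24%) had a positive interaction, a parity effect that was higher with S-961 than without, and 62 (0.345%) had a negative one. Across all genes tested the median interaction was -0.04 on the log2 scale. Just inside this limit lay Il13ra1 and Nyap1, with interactions of -0.73 ± 0.23 and 0.99 ± 0.32, and just outside lay Col1a1, with 2.04 ± 0.66 (± standard error).

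The 286 genes were sorted by their fitted parity effects. In 146 genes the effects had opposite signs in the 2 treatments and each was at least 1.5-fold, and these are called reversed, as the libraries are labelled. In 27 genes the effect with S-961 was at least 1 on the log2 scale while that without treatment was under 1.5-fold, and in 20 genes the converse held. The remaining 93 genes met none of these limits. Of the reversed genes, 110 were higher in multipara libraries with S-961 and lower without treatment, and 36 ran the other way. All 27 genes with an effect in S-961 only were higher in multipara. A group with 0 counts in every library occurred in 3, 2 and 1 genes of these classes, and the fitted size is not a measure of fold for them. Without the S-961 library multipara replicate 4 the reversed genes numbered 244 and the S-961-only genes 158. The S-961-only genes numbered 3 without multipara untreated replicate 2 and 7 with the acinar covariate, and the untreated-only genes numbered 335 without multipara untreated replicate 2. Without untreated virgin replicate 1 or 2 the reversed genes numbered 97 or 71.

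**Figure D1:**
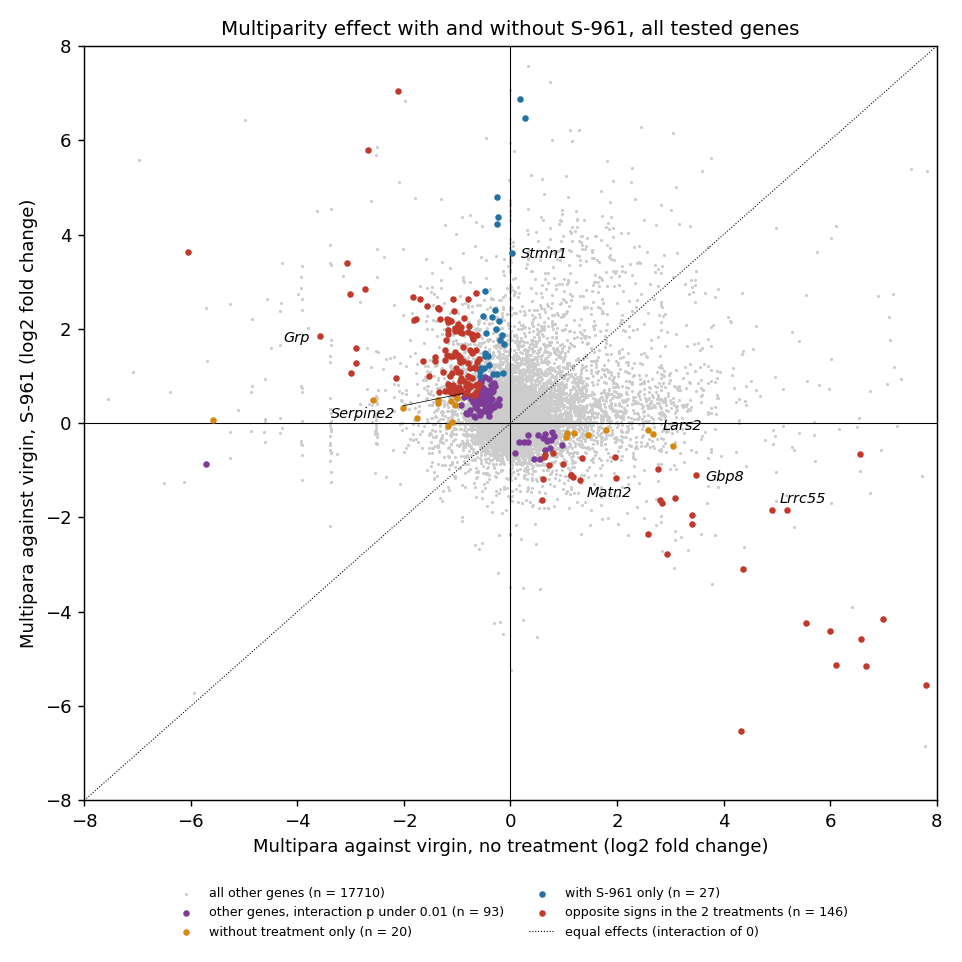
Parity effect without treatment (horizontal axis) and with S-961 (vertical axis), both as log2 fold change of multipara against virgin, for the genes tested; 11 genes lie outside the axes at 8. The 146 reversed genes fill the upper left and lower right quadrants by construction, the 27 S-961-only genes lie along the vertical axis, and Lars2 lies on the horizontal axis.

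Taken over all genes by level alone, 255 genes (1.42%) had every S-961 multipara library above every S-961 virgin library and every untreated multipara library below every untreated virgin library. The converse held in 128 genes (0.711%). These 383 genes became 1013 without multipara S-961 replicate 4 and 828 without multipara untreated replicate 1, where fewer libraries have to be ordered. No other library was left out for this count, and the cause of the rise was not tested. In 8.74% of genes the parity groups did not overlap with S-961, and in 35.5% they did not overlap without treatment, where only 2 libraries stand against 2. In the class higher with S-961 and lower without, 69 of 110 genes showed no overlap in either treatment, and in the opposite class 12 of 36 did. Of the 27 S-961-only genes, 25 showed no overlap with S-961, 11 showed none without treatment and 10 showed none in either. The limits of each class use the same values, so these counts describe the members and test nothing.

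The clearest gene of the class that was higher without treatment and lower with S-961 was Lrrc55, on chromosome 2 at 85162334 to 85197197 of GRCm38. It encodes a leucine-rich repeat subunit that tunes large-conductance calcium-activated potassium channels. Its levels in CPM, counts scaled to the size of the library, were 0.727 and 0.847 in untreated virgin libraries and 24.9 and 22.8 in untreated multipara libraries. With S-961 they were 7.54, 6.82 and 5.34 in virgin libraries and 0.596, 0.32, 1.96 and 4.43 in multipara libraries. The parity groups did not overlap in either treatment, and the order of the groups was turned. The parity effect was 4.92 ± 0.98 without treatment and -1.85 ± 0.63 with S-961 (log2 fold change ± standard error), and the interaction was -6.76 ± 1.17 (adjusted p = 0.372, edgeR). With 1 library left out at a time it stayed between -7.68 and -6.41.

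Matn2, which encodes the matrix protein matrilin-2, ran the same way. It read 21.4 and 19.7 CPM in untreated virgin libraries against 51.4 and 50 CPM in untreated multipara libraries. With S-961 it read 132, 143 and 148 CPM in virgin and 41.7, 59.2, 27 and 115 CPM in multipara libraries. Again neither treatment showed an overlap, with replicate 4 of multipara next to the virgin libraries. The interaction was -2.52 ± 0.62 (adjusted p = 0.44, edgeR). Fbxw24, an F-box protein gene named after its values were seen, had 0.306 and 0.282 CPM in untreated virgin, 1.79 and 1.76 in untreated multipara, 1.76 to 2.88 in S-961 virgin and 0.136 to 1.3 in S-961 multipara libraries.

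Of the pregnancy and lactogen genes, 12 of 13 listed were tested. Their median parity effect was 0.18 without treatment and -0.28 with S-961. At p under 0.01, 4 had a negative interaction and 0 a positive one, beside 0.345% and 1.24% of all genes tested. These 4 were Lrrc55, Matn2, Tph1 and Neb, all in the reversed class. The list contains genes that the study itself discusses for multipara islets, so its members were not chosen independently of these data. The sign of their parity effects with S-961 rests on the labels of those libraries. Tph1 had 0 counts in both untreated virgin libraries and 0.402 and 0.378 CPM in untreated multipara libraries. With S-961 it had 2.01, 1.75 and 4.53 CPM in virgin and 1.17, 4.25, 1.06 and 0.591 CPM in multipara libraries, which overlapped. Neb, which encodes the giant filament protein nebulin, had 1.45 and 2.42 CPM against 2.9 and 3.03 CPM without treatment. It had 11, 14.3 and 8.35 CPM against 3.52, 5.3, 3.01 and 7.89 CPM with S-961, and its interaction was -1.8 ± 0.58 (adjusted p = 0.627, edgeR). The prolactin receptor gene Prlr had an interaction of 0.5 ± 0.36 and the cytokine feedback gene Socs2 of 0.1 ± 0.2, so that the negative sign was not shared by the whole list.

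**Figure D2:**
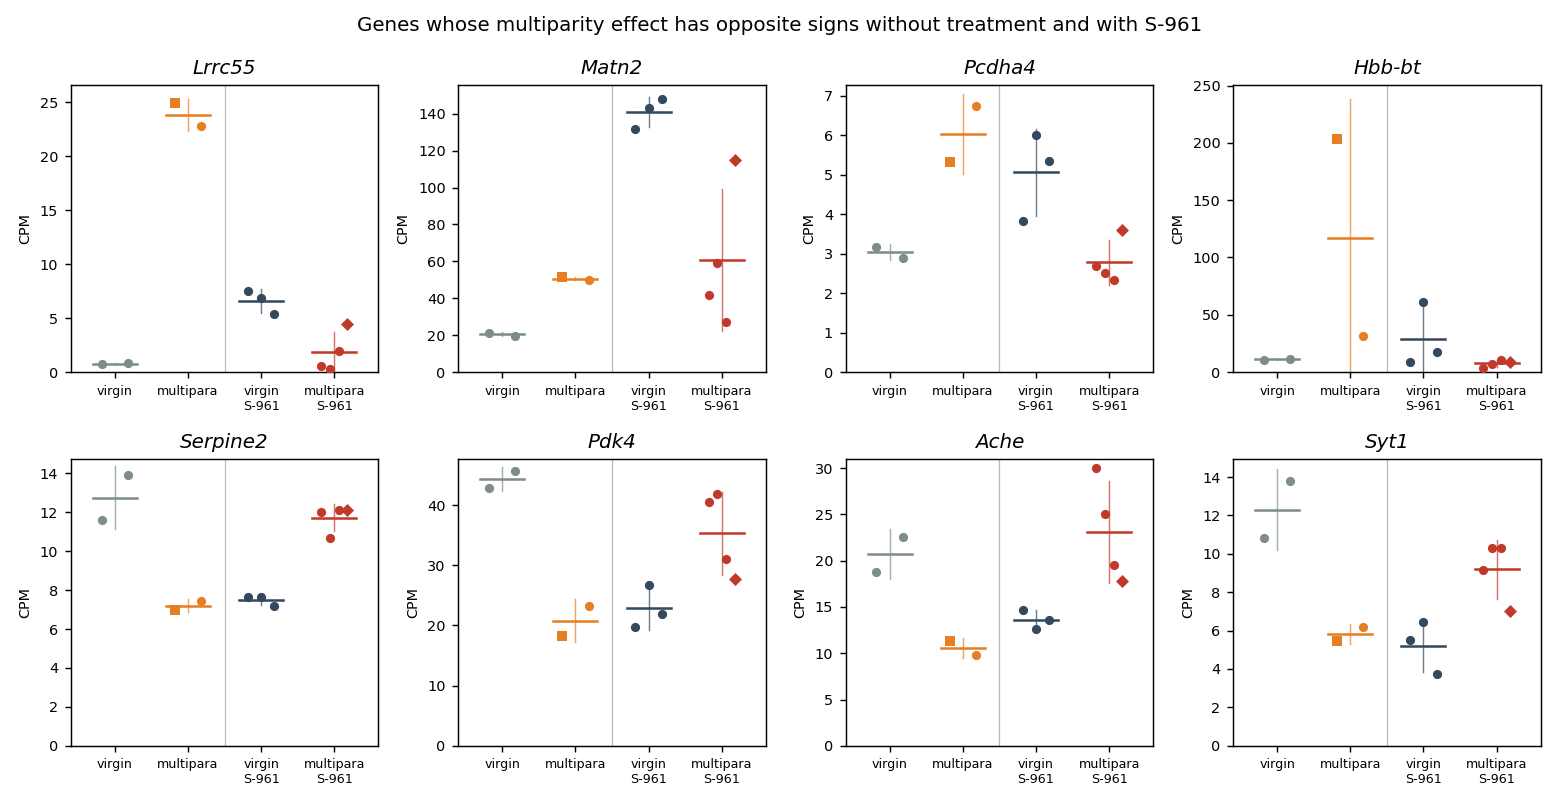
CPM per library for 8 reversed genes, with group means (horizontal lines) and SD (vertical lines, cut at 0); the diamond is multipara S-961 replicate 4 and the square is multipara untreated replicate 1. In the upper row multipara lies above virgin without treatment and below it with S-961, with overlap for Hbb-bt in S-961, and in the lower row the order is the opposite.

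Red cell genes ran the same way as Lrrc55, with median parity effects of 3.1 without treatment and -1.69 with S-961. All 5 tested had a negative interaction at p under 0.01, beside 0.345% of all genes tested. Hbb-bt, a beta-globin gene, had 10.6 and 11.5 CPM in untreated virgin and 203 and 31.1 CPM in untreated multipara libraries. It had 8.62, 61.2 and 17.3 CPM in S-961 virgin and 3.33, 7.27, 10.8 and 8.81 CPM in S-961 multipara libraries, with overlap. The single libraries multipara untreated replicate 1 and virgin S-961 replicate 2 held the high values. Without the former the median interaction of the 5 genes was -3.14 in place of -4.68. Hba-a2, an alpha-globin gene, had 1070 and 227 CPM in the untreated multipara libraries, and 182 CPM in virgin S-961 replicate 2. Globin genes have near-identical copies, and the authors' counting divided reads between them.

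Gbp8, an interferon-inducible GTPase gene, had 30.5 and 5.86 CPM in untreated multipara libraries against 1.22 and 2.02 CPM in untreated virgin libraries. After S-961 it had 6.49, 6.55 and 7.57 CPM in virgin and 1.6, 1.92, 2.42 and 6.83 CPM in multipara libraries. The groups did not overlap without treatment and overlapped through replicate 4 with S-961. Its interaction of -4.6 ± 1 (adjusted p = 0.409, edgeR) was -2.96 at its weakest with 1 library left out. Pcdha4, a clustered protocadherin of cell adhesion, ran the same way with no overlap in either treatment. It had 3.18 and 2.9 against 5.32 and 6.74 CPM untreated, and 3.83, 6 and 5.34 against 2.68, 2.5, 2.34 and 3.61 CPM with S-961. Genes of this cluster share exons, so its reads may be divided among neighbours.

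Serpine2 stood first among the genes that were lower in multipara without treatment and higher with S-961. It encodes protease nexin-1, an inhibitor of serine proteases, and lies on chromosome 1 at 79794197 to 79861180. It had 11.6 and 13.9 CPM in untreated virgin and 6.97 and 7.44 CPM in untreated multipara libraries. With S-961 it had 7.67, 7.66 and 7.18 CPM in virgin and 12, 10.7, 12.1 and 12.1 CPM in multipara libraries. All 4 multipara S-961 libraries, replicate 4 included, lay above all virgin ones. The interaction was 1.47 ± 0.21 (adjusted p = 0.222, edgeR) and stayed between 1.33 and 1.6 with 1 library left out.

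Pdk4, the kinase that switches off pyruvate dehydrogenase and spares glucose during fasting, lay on chromosome 6 at 5483351 to 5496309. It had 42.9 and 45.7 CPM in untreated virgin, 18.3 and 23.3 CPM in untreated multipara, 19.8, 26.8 and 21.9 CPM in S-961 virgin and 40.6, 41.8, 31.1 and 27.8 CPM in S-961 multipara libraries. Its interaction was 1.72 ± 0.28 (adjusted p = 0.372, edgeR). Ache, acetylcholinesterase, had 18.8 and 22.6 against 11.3 and 9.83 CPM without treatment. The S-961 values were 14.7, 12.6 and 13.6 CPM in virgin and 30, 25.1, 19.5 and 17.8 CPM in multipara libraries. Syt1, the calcium sensor of vesicle release, and Vwde showed the same order, with interactions of 1.9 ± 0.36 and 1.95 ± 0.34. None of these 5 genes had overlapping parity groups in either treatment. In each of them the untreated virgin and the S-961 multipara libraries formed the upper levels.

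Atf3, a stress-induced transcription factor, read 32.1 and 20 CPM in untreated virgin and 12.2 and 13.6 CPM in untreated multipara libraries. With S-961 it read 25.3, 27.6 and 28 CPM in virgin and 64, 78.2, 73 and 27.1 CPM in multipara libraries. The S-961 groups overlapped through replicate 4 alone. The interaction was 2.18 ± 0.51 (adjusted p = 0.409, edgeR). Nupr1, another stress-response regulator, had the opposite sign, with 80.2 and 106 against 176 and 186 CPM untreated and 82.9 to 121 against 57.8 to 86.3 CPM with S-961. Of 19 genes of ER stress and the unfolded protein response, 1 was positive and 1 negative at p under 0.01. The shares over all genes tested were 1.24% and 0.345%, and the median interaction of the list was -0.06. The 2 genes were Atf3 and Nupr1.

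The α cell list had the direction of Serpine2. All 6 genes had a lower level in multipara without treatment and a higher level with S-961, with medians of -0.6 and 0.51 beside 0.02 and -0.01 for all genes. The interaction was positive at p under 0.01 in 4 of 6 and negative in 0, beside 1.24% and 0.345% of all genes tested. Gcg, the glucagon gene, had 44600 and 50400 CPM in untreated virgin and 23800 and 34800 CPM in untreated multipara libraries. With S-961 it had 12500, 13200 and 13400 CPM in virgin and 18600, 21600, 18300 and 14500 CPM in multipara libraries. Its interaction was 1.19 ± 0.29 (adjusted p = 0.44, edgeR), without overlap in either treatment. Irx1 and Irx2, homeobox genes of the α cell lineage, had interactions of 1.18 ± 0.22 and 1.02 ± 0.25, also without overlap. Gc, which encodes vitamin D binding protein, had an interaction of 1.92 ± 0.61 with overlap in S-961 through replicate 4, at 78.2 CPM. Without multipara untreated replicate 1 the median interaction of the list was 0.87 in place of 1.1.

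The 5 δ and PP cell genes also had positive interactions, with a median of 0.79. Among them 1, Rbp4, had p under 0.01, beside 1.24% of all genes tested with a positive interaction. Pyy, a gut and islet peptide, had 2520 and 2250 against 1840 and 1990 CPM without treatment and 776 to 975 against 1030 to 1540 CPM with S-961. Sst, somatostatin, had 5100 and 6080 against 3300 and 3930 CPM without treatment and 1870 to 2670 against 1910 to 3370 CPM with S-961, the latter with overlap. The β cell identity list differed from these, with 14 of 20 interactions negative, a median of -0.18 and 0 genes at p under 0.01. Over all genes tested, 9735 of 17996 interactions were negative. Mafa, a transcription factor of mature β cells, had 183 to 213 against 219 to 269 CPM without treatment and 567 to 796 against 328 to 629 CPM with S-961. Its interaction was -0.9 ± 0.35 (adjusted p = 0.714, edgeR). Since CPM values are shares of a library in which insulin takes up to 41.4%, these lists are not independent of one another.

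Potassium channel genes set the resting voltage of islet cells. Of 73 tested, 4 had a positive and 1 a negative interaction at p under 0.01, beside 1.24% and 0.345% of all genes tested. The median interaction was 0.24. The 4 were Kcnc4, Kcna5, Kcnk2 and Kcnk3, all reversed, and the negative one was the subunit gene Kcnab3, with -1.21 ± 0.35. Kcnk3, a background channel, had 32.3 and 48.7 against 20.8 and 21.5 CPM without treatment. After S-961 it had 8.25, 8.78 and 7.02 CPM in virgin and 12.3, 11.9, 20.4 and 7.74 CPM in multipara libraries, with replicate 4 inside the virgin range. Kcnc4, a voltage-gated channel, had 6.96 and 10.6 against 3.44 and 3.53 CPM without treatment, and 1.33 to 1.63 against 1.66 to 3.11 CPM with S-961.

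**Figure D3:**
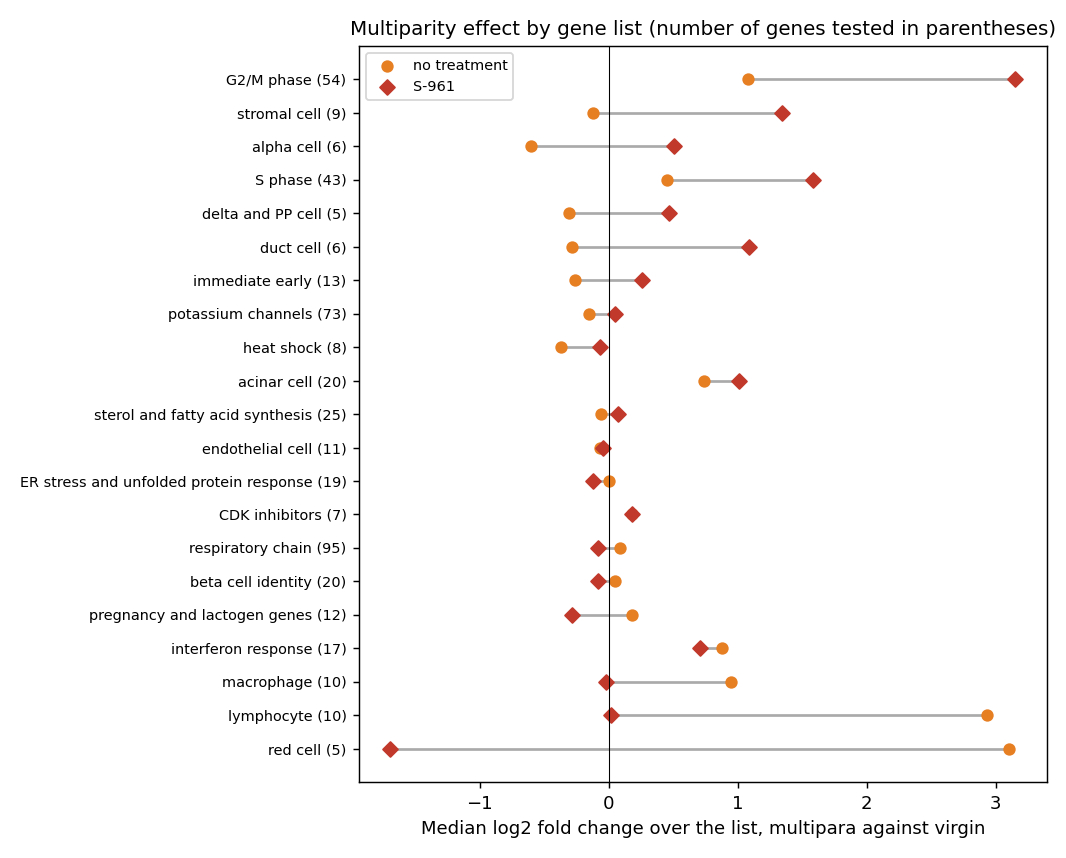
Median log2 fold change of multipara against virgin over each gene list, without treatment (circles) and with S-961 (diamonds), joined by a line. Medians of the red cell, α cell, stromal, duct, δ and PP cell lists, among others, lie on both sides of 0, and the macrophage and lymphocyte values without treatment rest on 1 library.

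Among genes with a parity effect in S-961 only, Map1a encodes a microtubule-associated protein of neurons. It had 6.71, 5.28 and 4.11 CPM in S-961 virgin and 14.3, 10.9, 12.8 and 8.39 CPM in S-961 multipara libraries. Without treatment it had 6.27 and 8.38 CPM in virgin and 4.29 and 5.55 CPM in multipara libraries. These untreated groups did not overlap and had the opposite order, with an effect under the limit of 1.5-fold. The 4 multipara S-961 libraries were above every S-961 virgin library, and replicate 4 was level with the higher untreated virgin library. The interaction was 1.69 ± 0.39 (adjusted p = 0.409, edgeR). Scara3, a scavenger receptor, and Parm1, a mucin-like membrane protein, differed in that the S-961 virgin libraries were the low group. Scara3 had 1.2 to 1.93 CPM in S-961 virgin against 1.95 to 5.24 CPM in all other libraries, and Parm1 had 5.08 to 6.34 CPM against 7.33 to 18.6 CPM.

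Loxl1, which crosslinks elastin, had 0.989 to 1.87 CPM in S-961 virgin and 3.32 to 4.58 CPM in S-961 multipara libraries. Untreated libraries had 1.13 to 2.34 CPM of it. Stmn1, a microtubule destabiliser that is high in dividing cells, had 2.5, 4.13 and 2.43 CPM in S-961 virgin and 51.1, 61.5, 31.5 and 4.26 CPM in S-961 multipara libraries. Untreated libraries had 14.4, 12.9, 20.7 and 7.12 CPM. The interaction of Stmn1 was 3.58 ± 1.13 (adjusted p = 0.626, edgeR), and replicate 4 lay just above the virgin range.

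All 9 stromal genes had a positive interaction, with medians of -0.12 without treatment and 1.34 with S-961. Of the 9 genes 1, Col3a1, had p under 0.01, beside 1.24% of all genes tested with a positive interaction. Col3a1, a fibrillar collagen, had 18.3, 21.4 and 17.7 CPM in S-961 virgin and 48.6, 46.3, 108 and 40.7 CPM in S-961 multipara libraries. It had 27.9, 24.3, 29.2 and 18.7 CPM without treatment, where the parity groups overlapped. Replicate 4 lay with the other multipara libraries for this gene. Without multipara untreated replicate 1 the median interaction of the list was 2.16 in place of 1.15, and without replicate 2 it was 0.69. Duct cell genes were positive in 6 of 6, and Krt19 and Muc1, epithelial markers of ducts, were in the reversed class, with interactions of 3.38 ± 1 and 2.25 ± 0.65. With the acinar covariate the duct median with S-961 was 0.53 in place of 1.09. The summed duct markers were 265 to 275 CPM in S-961 virgin and 273 to 381 CPM in S-961 multipara libraries.

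Genes of the cell cycle were higher in multipara than in virgin libraries with S-961 as labelled, with median effects of 3.15 in G2/M and 1.58 in S phase, but did not meet the limit for an interaction. This direction rests on the labels of the S-961 libraries and would turn if they were exchanged. With all libraries, 50 of 54 G2/M genes had a positive interaction, beside 8261 of 17996 genes tested. Their median was 1.75, and 0 had p under 0.01. Of 43 S phase genes, 37 were positive, with a median of 0.87, and again 0 had p under 0.01. Mki67, the proliferation marker Ki-67, had 3.43, 13.9 and 3.04 CPM in S-961 virgin and 93.9, 65.5, 43.5 and 3.93 CPM in S-961 multipara libraries. Without treatment it had 6.54 and 3.51 CPM in virgin and 38.6 and 2.14 CPM in multipara libraries. Multipara S-961 replicate 4 and multipara untreated replicate 1 stood apart from their groups, and the interaction of 0.89 ± 1.65 (adjusted p = 0.954, edgeR) ran from -0.01 to 4.16 with 1 library left out. Without multipara untreated replicate 1 the median interaction was 3.9 in G2/M and 1.44 in S phase. The medians were 1.08 and 0.48 without multipara untreated replicate 2. With multipara untreated replicate 1 and multipara S-961 replicate 4 both left out they were 4.27 and 1.73. That fit leaves untreated replicate 2 alone in its group. The G2/M median was 0.48 with the strict filter, which kept 23 genes. With the acinar covariate the median effects with S-961 were 1.81 and 0.79. Of 97 cell cycle genes, 79 had each of multipara S-961 replicates 1 to 3 above every virgin S-961 library, an order that 13.4% of all genes tested had. Among 7 inhibitors of cyclin-dependent kinases the median interaction was -0.09 and 0 had p under 0.01. Cdkn2a, the p16 gene, had 0.727 and 0.484 against 1.34 and 1.26 CPM without treatment and 0.453 to 0.927 against 0.489 to 1.34 CPM with S-961.

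Lars2 led the genes with a parity effect without treatment only. It encodes the leucyl-tRNA synthetase of mitochondria and lies on chromosome 9 at 123366927 to 123462666. It had 365 and 193 CPM in untreated virgin libraries and 1610 and 1970 CPM in untreated multipara libraries. With S-961 it had 91.2, 127 and 110 CPM in virgin and 95.3, 113, 69.1 and 95.8 CPM in multipara libraries. The untreated multipara libraries stood apart, and the S-961 groups overlapped. The parity effect was 2.68 ± 0.32 without treatment (adjusted p = 0.0877) and -0.23 ± 0.23 with S-961 (adjusted p = 0.731), and the interaction was -2.91 ± 0.39 (adjusted p = 0.222, all edgeR). With 1 library left out it stayed between -3.44 and -2.52. The mitochondrial ribosomal RNA mt-Rnr2, named after its values were seen, had an interaction of -0.67 ± 0.19. It had 291 and 331 against 359 and 387 CPM untreated and 361 to 404 against 263 to 321 CPM with S-961.

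Neat1, the RNA scaffold of nuclear paraspeckles, had 106 and 150 CPM in untreated virgin and 289 and 239 CPM in untreated multipara libraries. Its S-961 levels were 372, 384 and 343 CPM in virgin and 214, 222, 388 and 371 CPM in multipara libraries, with overlap. Its interaction was -1.34 ± 0.38 (adjusted p = 0.553, edgeR). In the opposite direction, Ncs1, a neuronal calcium sensor, had 9.3 and 9.35 CPM in untreated virgin and 4.11 and 4.92 CPM in untreated multipara libraries. The S-961 libraries had 4.14 to 4.98 CPM in virgin and 4.32 to 6.91 CPM in multipara. Errfi1, a feedback inhibitor of the EGF receptor, had 49.4 and 52.6 against 25.8 and 21.7 CPM without treatment and 36.6 to 50.6 against 35.4 to 60.8 CPM with S-961.

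Cacng4, a regulatory subunit of AMPA receptors and calcium channels, had 14.5 and 21.6 against 8.71 and 9.27 CPM without treatment. Its S-961 groups did not overlap either, at 3.06 to 4.95 against 5.7 to 7.23 CPM, although its parity effect there, 0.54 ± 0.21, was under the limit of 1.5-fold. Lancl3 had 1.65 and 1.69 against 0.536 and 0.441 CPM, and Fam107a had 18.5 and 27.1 against 8.44 and 12.6 CPM, without treatment. With S-961 their parity effects were 0.11 ± 0.3 and 0.46 ± 0.29. Of the 12 genes lower in untreated multipara libraries, 12 showed no overlap without treatment and 1 showed none with S-961. Of the 8 genes higher there, 8 and 0 did, beside 35.5% and 8.74% of all genes tested. The limits of the class use the same values, so these counts test nothing.

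**Figure D4:**
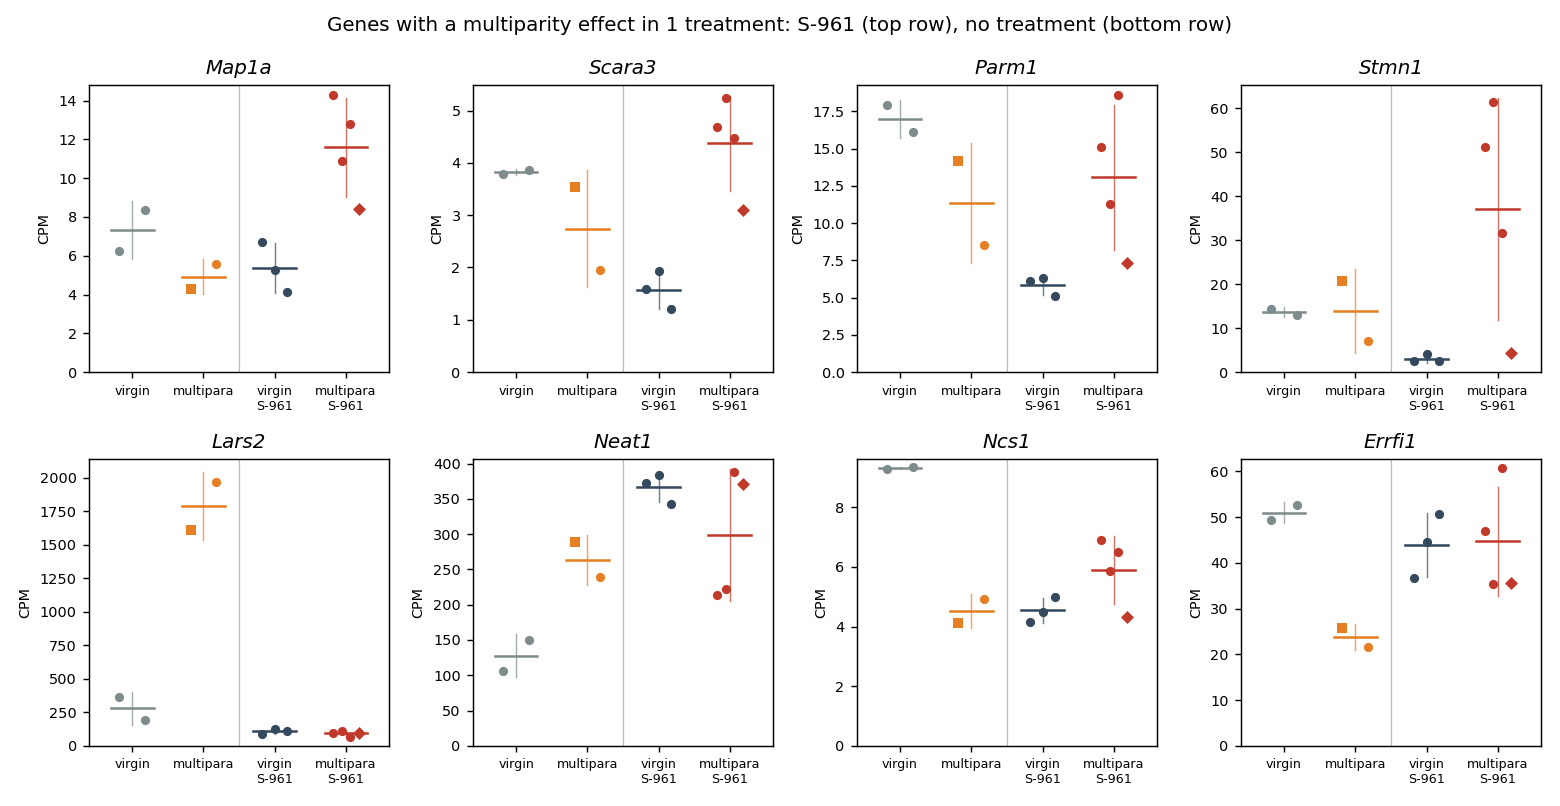
CPM per library for 4 genes with a parity effect in S-961 only (upper row) and 4 genes with an effect without treatment only (lower row), with group means, SD and symbols as in the plot of reversed genes. In the upper row the S-961 multipara libraries lie above the S-961 virgin ones, and in the lower row the untreated groups are apart while the S-961 groups overlap.

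The medians of the immune lists depended on 1 library. All 10 lymphocyte genes had a negative interaction, with a median of -2.94, and 0 had p under 0.01. Cd4, a marker of helper T cells, had 20.6 CPM in multipara untreated replicate 1 and 0.241 to 1.84 CPM in the other 10 libraries. Without that library the median of the list was 1.28, with the opposite sign. The macrophage median was -1.04 with it and -0.01 without it, and the interferon response median was -0.36 with it and 0.75 without it. Summed lymphocyte markers were 5.22 to 28.9 CPM in S-961 virgin and 6.78 to 35.4 CPM in S-961 multipara libraries. They were 37.4 to 45.6 CPM in untreated virgin and 28.9 to 327 CPM in untreated multipara libraries.

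The other lists had median interactions from -0.16 to 0.5. Of 95 respiratory chain genes, 77 were negative, beside 9735 of 17996 genes tested. Their median was -0.16, and 0 had p under 0.01. Immediate early genes, which respond within minutes to a stimulus, were positive in 10 of 13 with a median of 0.5. Fos among them had 550 to 645 against 386 to 421 CPM without treatment and 938 to 1080 against 826 to 1390 CPM with S-961. Of 8 heat shock genes 1, Hspb1, was positive at p under 0.01, beside 1.24% of all genes tested. Its interaction was 1 ± 0.29, and the median of the list was 0.23. The sterol and fatty acid list had a median of 0.07 over 25 genes. The endothelial median was -0.03 over 11 genes and the acinar median 0.16 over 20 genes, with 0 genes at p under 0.01 in either.

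**Figure D5:**
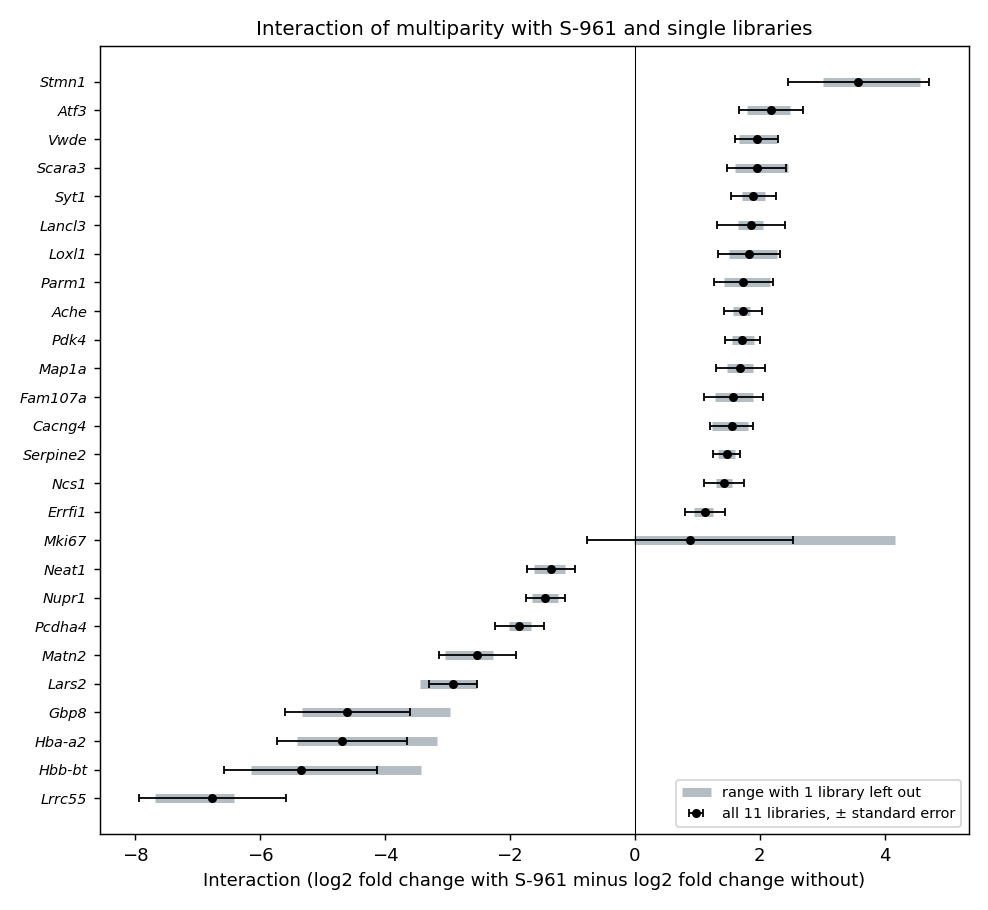
Interaction of the named class members and of Matn2, Atf3, Nupr1, Stmn1 and Mki67 as log2 fold change with S-961 minus that without, with standard error (points and thin bars), and the range when 1 of 11 libraries is left out (thick bars). The range crosses 0 for Mki67 and for none of the other genes drawn.

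The stretch before the start site is shown for the 4 genes on which the description turns, so that their regulatory sequence can be read beside their opposite or single-treatment patterns. Each is the 250 bases before the RefSeq start, on the gene's strand, from GRCm38.p6. They lie at chr2:85198751-85199000 (minus strand, Lrrc55), chr1:79858666-79858915 (minus, Serpine2), chr6:5496279-5496528 (minus, Pdk4) and chr9:123366677-123366926 (plus, Lars2). The RefSeq start of Lrrc55 lies upstream of the gene model used for the counts, and those of Serpine2 and Pdk4 lie inside theirs. Capitals mark matches on either strand to TTCNNNGAA (bound by STAT factors below the prolactin receptor), TGTTTAC (FOXO factors, held back by insulin), TGACG (a CRE half-site) or CCAAT (NF-Y).
Lrrc55: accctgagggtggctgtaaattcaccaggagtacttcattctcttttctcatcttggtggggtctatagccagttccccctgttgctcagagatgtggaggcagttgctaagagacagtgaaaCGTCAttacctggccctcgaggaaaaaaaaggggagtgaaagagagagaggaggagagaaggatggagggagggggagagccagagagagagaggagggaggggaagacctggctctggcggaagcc
Serpine2: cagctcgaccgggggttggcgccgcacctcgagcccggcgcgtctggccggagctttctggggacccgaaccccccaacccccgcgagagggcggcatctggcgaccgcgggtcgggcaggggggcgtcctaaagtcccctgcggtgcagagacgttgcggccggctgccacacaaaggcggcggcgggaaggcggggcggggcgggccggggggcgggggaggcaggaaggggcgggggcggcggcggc
Pdk4: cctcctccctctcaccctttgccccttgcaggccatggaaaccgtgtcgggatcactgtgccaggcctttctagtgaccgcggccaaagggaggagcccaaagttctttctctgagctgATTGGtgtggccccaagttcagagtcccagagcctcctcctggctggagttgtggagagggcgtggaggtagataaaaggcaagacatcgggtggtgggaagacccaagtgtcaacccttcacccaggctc
Lars2: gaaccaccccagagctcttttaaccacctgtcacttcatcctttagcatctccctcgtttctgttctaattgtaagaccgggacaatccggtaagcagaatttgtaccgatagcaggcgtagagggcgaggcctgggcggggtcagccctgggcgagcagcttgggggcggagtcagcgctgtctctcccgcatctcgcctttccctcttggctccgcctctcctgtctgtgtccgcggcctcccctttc
A TGACG match, read on the other strand, was found before Lrrc55, and a CCAAT match, also on the other strand, before Pdk4. Serpine2 and Lars2 had none of the 4 motifs in these windows, and no matches overlapped in the sequences shown.

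A promoter was found by symbol for 105 of 146 reversed genes, 17 of 27 S-961-only genes and 11 of 20 untreated-only genes. TTCNNNGAA was present in 3 of 22 reversed genes with a negative interaction (13.6%) and in 3 of 83 with a positive one (3.61%), beside 8.13% of all 27025 genes with a promoter in the table. TGTTTAC was present in 0 of 22 and 0 of 83, beside 3.54% of all. TGACG was present in 22.7% and 12% of these 2 groups, beside 19.8% of all, and CCAAT in 45.5% and 31.3%, beside 37.5% of all. A match describes these letters only, and with so few promoters each share moves by several percentage points with 1 gene.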

How the data were processed

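Poly(A) RNA of mouse islets was sequenced with a strand-specific kit, and 11 libraries were grouped by their titles. The authors deposited 1 table per library of estimated counts (expected counts) per gene with no normalization, and the submitters' processing notes name STAR, RSEM and GRCm38. Whether counting used the strand was not given in the sources used here. No column of the tables held values of other samples.

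Counts were rounded and joined to GENCODE release M21 by identifier (55450 of 55536 genes). A single edgeR 4.0.16 fit in R 4.3.3 held all 11 libraries in 4 groups, with TMM scaling, filterByExpr (minimum count 10, minimum total 15) and the quasi-likelihood test, with Benjamini-Hochberg adjustment over 17996 genes. It had 7 residual degrees of freedom and a biological coefficient of variation of 0.293, so that the spread between libraries limits precision more than depth does, except at low counts. CPM used the TMM scaling. Standard errors are of log2 fold changes. Levels of different genes are not compared, since CPM has no length correction.

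The named genes were, per class and sign of the interaction, the 5 with the smallest p among those whose mean log2 CPM reached 1 and whose symbol was not a clone name, plus Mki67, genes discussed by the study and the leading members of each list. Some genes that this rule names are not reported here. Members, classes and the 22 lists were chosen with earlier results of these data known. A chi-square comparison found no library to be a repeat of another. Alternatives were DESeq2 1.42.0, its size factors, no filter, a strict filter (1 CPM in 8 libraries), limma 3.58.1 voom with quality weights, leaving out libraries, a replicate block, an acinar score as covariate and separate fits per treatment. The statistics were tested on simulated counts. Promoters came from a RefSeq table, and figures were drawn with matplotlib 3.10.9.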

Additional observations from a re-analysis of the deposited data

Results flagged for a closer look

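In 6 of 114 named genes (5.26%) the highest or lowest of the 4 multipara S-961 libraries was separated from the next by more of the group's range than Dixon's 95% limit allows, and chance flags about 1 in 20 groups. In 4 of these the library was replicate 4. It was the highest for Rerg, a Ras-like growth regulator, at 15.7 CPM (gap of 0.862 of the range). It was the lowest for the mitotic genes Cenpi at 0.148 CPM (0.885) and Pimreg at 0.296 CPM (0.868), and for Zg16, an acinar gene, at 89.9 CPM (0.89). Replicate 2 was the lowest for Serpine2 at 10.7 CPM (0.907) and for Nkg7, a marker of cytotoxic lymphocytes, at 0.0582 CPM (0.858). For Serpine2 the flagged library still lay above all virgin S-961 libraries.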

How the results depend on the processing

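The interaction had 0 calls with all libraries, DESeq2 size factors, a strict filter or an acinar covariate. It had 79 by DESeq2, 4 without a filter (Lars2, Lrrc55, Pdk4 and Vwde), 11 by voom and 50 without multipara S-961 replicate 4 and multipara untreated replicate 1. With 1 library left out it had 0 to 45 calls. The 45 came without multipara S-961 replicate 4, and 32, all negative, without multipara untreated replicate 2, which leaves the deviating replicate 1 alone and assumed to vary like the other groups. The parity effect with S-961 had 342 calls by DESeq2, 49 without a filter, 338 by voom, 774 without both libraries and 0 to 678 with 1 left out, the most without multipara S-961 replicate 4. That without treatment had 7, 3 and 4 by the first 3 of these, 1 by the strict filter and 0 to 239 with 1 left out, the most without multipara untreated replicate 2. Separate fits gave 0. Reversed genes numbered 231 without a filter, 95 by the strict filter, 229 by voom, 355 without both libraries and 71 to 244 with 1 left out. S-961-only genes numbered 43 by DESeq2, 50 without a filter, 63 by voom, 183 without both, 7 with the acinar covariate and 3 to 158 with 1 left out. Untreated-only genes numbered 36, 42 and 35 by DESeq2, without a filter and with the acinar covariate, and 7 to 335 with 1 left out. The added choices, made after the data were seen, gave 1013 and 828 genes reversed without overlap in place of 383. The cause of these moves was not tested. Replicate numbers did not pair the libraries (correlations of deviations -0.15 to 0.28), and the replicate block gave 34 interaction calls, 546 for S-961, 229 reversed and 158 S-961-only genes. In that fit the level for replicate 4 held only multipara S-961 replicate 4. This library therefore did not enter the parity effects, much as when it was left out. Among 110 named genes, the interaction changed sign in 8. Fkbp11 was 0 by voom, and Hspa1b was -0.01 without both libraries. With 1 library left out, the ranges that crossed 0 were -0.61 to 0.14 for Fkbp11, -0.01 to 4.16 for Mki67, -1.16 to 0.12 for Cldn5, -2.14 to 0.06 for Cd74, -1.91 to 0.27 for Cd68, -4.12 to 1.62 for Cd4 and -3.9 to 2.11 for Cd3d. Without both libraries Cd68 was 0.21, Cd4 1.73 and Cd3d 2.01.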

Other observations

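Lists of peripheral glia and autonomic neuron genes were written after reversed genes of these kinds were seen, so that their counts describe the data and test nothing, and 4 and 6 of the 146 reversed genes were members. Of 12 peripheral glia genes, 11 had a positive interaction, 5 at p under 0.01 and 4 in the reversed class, with medians of -0.46 without treatment and 1.17 with S-961. Sox10, the lineage factor of Schwann cells, had 0.765 and 1.05 CPM in untreated virgin and 0.491 and 0.378 CPM in untreated multipara libraries, and 0.332 to 0.582 CPM in S-961 virgin and 0.757 to 1.83 CPM in S-961 multipara libraries. Of 12 autonomic neuron genes, 11 were positive, 6 at p under 0.01, and those 6 were in the reversed class. Vip, a neuropeptide, had 31.2 and 61.5 against 14 and 22.3 CPM without treatment, and 2.26, 2.75 and 1.1 against 11.6, 15.5, 14.5 and 2.66 CPM with S-961, where replicate 4 lay within the virgin range. Prph, the peripherin of peripheral neurons, had 7.42 and 12.7 against 3.35 and 4.6 CPM without treatment and 0.712 to 1.99 against 2.28 to 9.86 CPM with S-961. Summed glia markers were 31.8 and 35.9 CPM in untreated virgin, 27 and 27 CPM in untreated multipara, 21.7 to 26.3 CPM in S-961 virgin and 25.5 to 51.3 CPM in S-961 multipara libraries.

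A list of 15 interferon-inducible GTPase genes was also written after values were seen, so its counts describe the data and test nothing. All 15 had a negative interaction, with a median of -1.94. Their summed level was 865 CPM in multipara untreated replicate 1 and 84.3 to 109 CPM in the other 10 libraries. Gpr26 and Gad2, singled out after their values were seen, split the S-961 libraries in another way than the labels. Gad2, which makes the transmitter GABA, had 14.6, 3.74 and 9.8 CPM in virgin and 11.3 CPM in multipara replicate 4 against 0.0813, 0.0291 and 0.18 CPM in multipara replicates 1 to 3. Gpr26, an orphan receptor, had 21.6, 14.6, 11.5 and 13.3 CPM against 0.271, 0.145 and 0.0772 CPM in the same order.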
